A study of Mus musculus with 2 samples.

Results

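The genes described here encode the respiratory chain and the ATP synthase of mitochondria. They were chosen by name, as all rows that start with Nduf, Uqcr, Cox with a digit from 4 to 8, or Atp5, the rows Sdha to Sdhd with their assembly factors, and the mitochondrial rows that start with mt-Nd, mt-Co, mt-Atp or mt-Cytb, leaving out pseudogene names. The rule took 111 of 23521 rows, 98 of them encoded in the nucleus and 13 in the mitochondrial genome. Among the nuclear members are 38 subunits of complex I, 4 of complex II, 8 of complex III, 19 of complex IV and 17 of the ATP synthase, beside 12 assembly factors (8 Ndufaf and 4 Sdhaf genes). Ndufa4 and its relative Ndufa4l2 were counted with complex IV, and subunits whose names fall outside these prefixes, such as Cyc1 of complex III, are not members. Every member had at least 1 UMI (unique molecular identifier, 1 counted RNA molecule) in the cells analysed.

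Cells came from lymphatic vessels of the neck that lead into the submandibular lymph nodes of FVB/N mice of the genotype Prox1-GFP, in which green fluorescent protein is driven by the promoter of Prox1, a transcription factor of lymphatic endothelium. They were sorted by flow cytometry, with no gate given in the sources used here, and captured with the Chromium 3′ v3.1 chemistry. The adult library pooled 6 mice of 12 weeks and the aged library 6 mice of 93 weeks. Each age is therefore 1 library, no test between ages is possible, and no p-value is given.

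The respiratory chain passes electrons from NADH through complex I, or from succinate through complex II, to complex III, cytochrome c and complex IV, which reduces oxygen. Complexes I, III and IV pump protons, and the ATP synthase uses the resulting gradient to make ATP. Both genomes supply subunits: the mitochondrial one gives core parts of all complexes except complex II, and the nuclear one gives the rest, including alternative subunits of complex IV that some tissues use. In lymphatic vessels the muscle coat contracts to move lymph and so consumes ATP.

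The adult library held 7308 cells (median 12087.5 UMIs). The aged one held 13969 cells, 6977 of them under barcodes also found in the adult library, where the copies had a median of 0.506 times the UMIs, and these were dropped. The remaining 6992 aged cells had a median of 11663.5 UMIs. Classes were named from fixed markers and are written with "-like". Smooth muscle-like cells numbered 235 adult and 189 aged (2 clusters), pericyte-like cells 62 and 39 (1 cluster), lymphatic endothelial-like cells 276 and 93 (4 clusters), blood endothelial-like cells 626 and 419 (4 clusters) and fibroblast-like cells 5933 and 5883 (26 clusters). Outside the classes were an unnamed cluster (154 and 342 cells), a mixed one (22 and 15) and 12 aged cells rich in salivary gland RNA. The unnamed cluster had 1.49 times the median fibroblast marker level of fibroblast-like clusters. By their markers most cells sorted from these vessels were therefore not lymphatic endothelium. The 8 lymphatic endothelial markers summed to 23442 CPM (counts-per-million of all UMIs of the class) in adult and 18160.2 in aged lymphatic endothelial-like cells, and to at most 1972 in every other class, and the 8 smooth muscle markers to 26029 and 29439 in smooth muscle-like cells and to at most 3528 elsewhere. The 8 pericyte markers summed to 5643 and 7545 CPM in pericyte-like cells and to at most 2390.1 elsewhere. Pericyte-like cells also held 4969 and 6680.1 CPM of the 8 fibroblast markers, against 24310.4 and 30727 in fibroblast-like cells, so their markers were mixed. The part of this in the pericyte-like values was not tested. Skeletal muscle markers, a possible source of respiratory chain RNA, summed to at most 10.6 CPM in every class.

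Smooth muscle-like cells devoted the largest share of their RNA to respiratory chain genes of the 5 classes, in both libraries and for both genomes. Nuclear members made up 1.91% of their UMIs in the adult library (95% interval 1.89 to 1.93) and 2.42% in the aged library (2.39 to 2.45). Pericyte-like cells followed with 1.61% and 1.53%. Lymphatic endothelial-like cells had 1.28% and 1.23%, blood endothelial-like cells 1.25% and 1.21%, and fibroblast-like cells 1.16% and 1.21%, and these 3 classes lay close together. These and all later intervals are exact Poisson or binomial intervals that cover counting error only, not differences between mice or libraries.

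Mitochondrially encoded members had the same class at the top. They made up 5.44% and 6.03% of UMIs in smooth muscle-like cells, adult first, and 4.23% and 4.69% in pericyte-like cells. Both endothelial classes stood at 3.45% and 3.98% (lymphatic) and 3.53% and 3.47% (blood). Fibroblast-like cells were lowest at 2.35% and 2.11%. Per nuclear member UMI, fibroblast-like cells held 2.03 and 1.74 mitochondrial member UMIs, and every other class held between 2.49 and 3.25. The deposited cells stop at a mitochondrial share of 10.0%, and 10 of 235 adult and 12 of 189 aged smooth muscle-like cells lay above 9%, and the part of this limit in the class order was not tested.

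**Figure D1:**
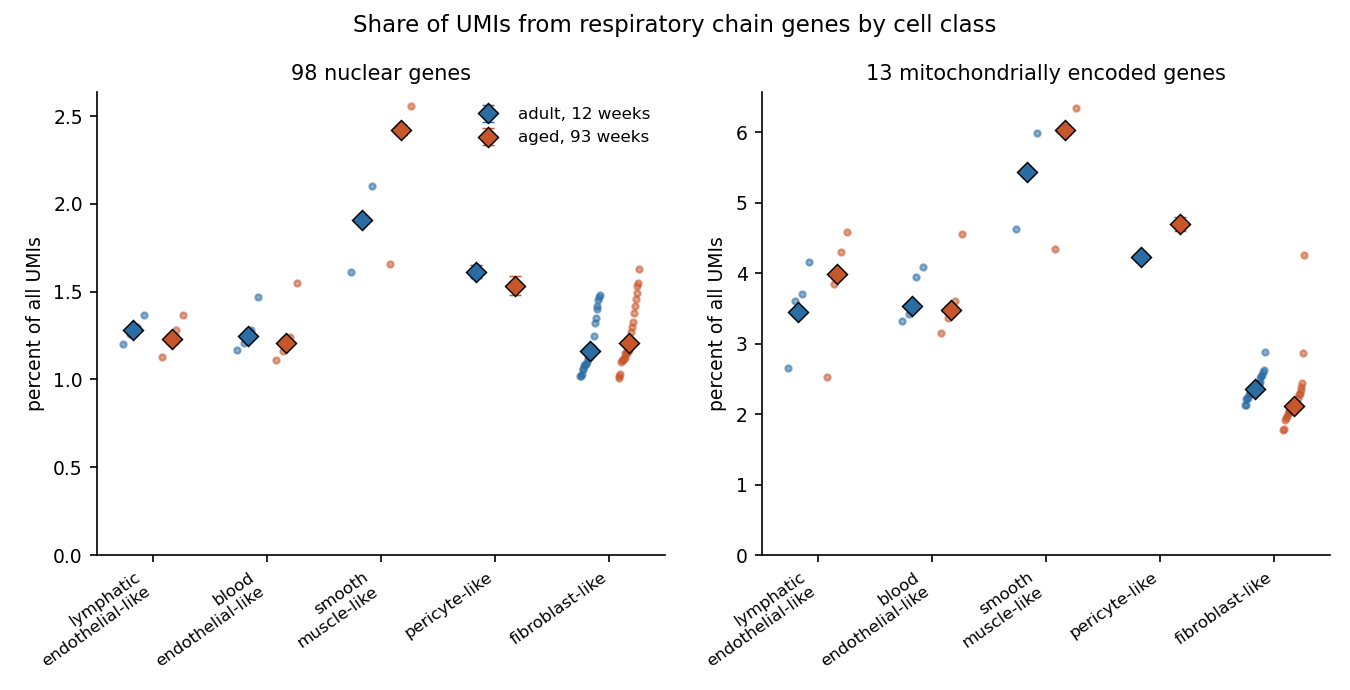
Share of UMIs (percent, vertical axis) from the 98 nuclear and the 13 mitochondrially encoded respiratory chain genes in each cell class (horizontal axis), adult and aged library side by side with exact 95% Poisson intervals. Smooth muscle-like cells are highest in both panels, at 1.91% and 2.42% for nuclear and 5.44% and 6.03% for mitochondrial genes.

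Against fibroblast-like cells, 46 of 90 measured nuclear members were 1.5-fold or more higher in smooth muscle-like cells in both libraries and 1 was lower, Sdhaf4, an assembly factor of complex II. Over all 9215 genes measured in either class the shares were 19.9% higher and 19.7% lower. Measured genes are those found in 10% or more of the cells of a class in the adult or the aged library, with a total of 50 or more UMIs, and folds were taken after adding 1 CPM. The median log2 difference of the nuclear members was 0.60 in the adult and 0.88 in the aged library, against 0.09 and 0.00 for all genes. All 13 mitochondrially encoded members were 1.5-fold or more higher in both libraries, with medians of 1.19 and 1.46.

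The members that were higher came from every complex. They were 21 of 36 measured nuclear subunits of complex I, 3 of 4 of complex II, 7 of 8 of complex III, 7 of 15 of complex IV and 6 of 17 of the ATP synthase. Of the assembly factors, 2 of 6 Ndufaf genes and 0 of 4 Sdhaf genes passed. Of the complex II subunits, Sdhc, a membrane anchor, stood at 155 and 153 CPM in adult and aged smooth muscle-like cells. It was at 43.7 and 45.8 CPM in fibroblast-like, 48.5 and 36.8 in blood endothelial-like, 42.7 and 53.1 in lymphatic endothelial-like and 83.7 and 109.9 in pericyte-like cells, so both smooth muscle-like values lay above all others.

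The same contrast held against endothelium. Over lymphatic endothelial-like cells 35 of 85 measured nuclear members were higher in both libraries and 1 was lower, again Sdhaf4, beside 20.9% and 21.2% of all genes. Over blood endothelial-like cells 46 of 86 were higher and 2 were lower, Sdhaf4 and Cox7a2l, beside 21% and 21.3%. Mitochondrial members passed 1.5-fold in 6 and 7 of 13 cases. Over pericyte-like cells only 6 of 83 nuclear members were higher and 1 was lower, beside 13.4% and 10% of all genes, which is a smaller share than in the background. Those 6 were Atp5k, Atp5md, Ndufa5, Ndufb2, Ndufb7 and Cox8a, and the lower one was Ndufs4.

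Among the nuclear members, the 5 with the highest level over all cells were Cox4i1 (651 CPM), Uqcrh (407), Cox8a (371), Atp5h (337) and Cox7a2l (334). In a 3′ library 1 molecule gives 1 UMI whatever its length, so these CPM were not divided by gene length. Uqcrh is a small hinge subunit of complex III, Atp5h a subunit of the peripheral stalk of the ATP synthase, and Cox7a2l a factor of respiratory supercomplexes. Cox8a, the smallest subunit of complex IV, showed the widest class difference of the 5. Its level was 939.7 CPM in adult and 1234 in aged smooth muscle-like cells, 596 and 626 in pericyte-like cells, and between 318 and 398 in the other 3 classes. Cox7a2l ran the other way, at 222 and 231 CPM in smooth muscle-like cells against 449.7 and 356 in blood endothelial-like, 394 and 315 in lymphatic endothelial-like and 345 and 320.2 in fibroblast-like cells. Cox4i1, a core nuclear subunit of complex IV, varied little by comparison, from 639 to 1061 CPM over all classes and libraries.

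Single subunits of a complex did not always follow their complex. Ndufa8, an accessory subunit of complex I, was highest in blood endothelial-like cells at 228 and 196 CPM, and at 92.4 to 158 elsewhere. Lymphatic endothelial-like cells differed little from blood endothelial-like cells: of 84 measured nuclear members 0 were higher and 1 was lower in both libraries, Ndufa8, beside 9.02% and 10.4% of all genes.

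The mitochondrially encoded transcripts differed widely in level. mt-Atp6, the proton channel subunit of the ATP synthase, was the highest at 12655 and 13874 CPM in smooth muscle-like and 5409 and 4798 in fibroblast-like cells. The mitochondrially encoded subunits of complex IV were also high, with mt-Co3 at 10098 and 11205 CPM in smooth muscle-like cells, mt-Co2 at 8003 and 9050.4 and mt-Co1 at 6290 and 6541. mt-Cytb, the cytochrome b of complex III, stood at 6543 and 7657 CPM in smooth muscle-like, 4005 and 4812 in lymphatic endothelial-like, 3251 and 3267 in blood endothelial-like and 2276 and 1990.4 in fibroblast-like cells. Its log2 difference between smooth muscle-like and fibroblast-like cells was 1.52 and 1.94. Of the complex I transcripts, mt-Nd2 (3608 and 3941 CPM in smooth muscle-like cells), mt-Nd4 (3188 and 3583) and mt-Nd1 (2724 and 3036) exceeded mt-Nd5 (537 and 542), mt-Nd3 (442 and 459), mt-Nd4l (208 and 256) and mt-Nd6 (44.3 and 53.2). mt-Nd6 is the only member on the other strand of the mitochondrial genome, and it was highest in lymphatic endothelial-like cells in both libraries, at 59.4 and 70.8 CPM. Reads of mt-Nd4l and mt-Nd4, and of mt-Atp8 and mt-Atp6, come from overlapping genes on shared transcripts, so their split, including the low 96.8 and 108 CPM of mt-Atp8, is uncertain.

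The promoters of members that were high together in smooth muscle-like cells are shown for 4 genes, 1 of the ATP synthase and 1 each of complexes IV, III and I, as the 250 bases before the RefSeq transcription start on the gene's strand (build GRCm38.p6). They are Atp5b (catalytic beta subunit; chr10:128083057-128083306, plus strand; 671 and 937 CPM in smooth muscle-like against 274 and 308 in fibroblast-like cells), Cox8a (chr19:7217617-7217866, minus strand), Uqcr11 (chr10:80406822-80407071, minus strand; 264 and 333 against 109 and 115 CPM) and Ndufb7 (chr8:83566508-83566757, plus strand; 269 and 341 against 114 and 119.8 CPM). Capitals mark matches to the motifs listed after them.
Atp5b: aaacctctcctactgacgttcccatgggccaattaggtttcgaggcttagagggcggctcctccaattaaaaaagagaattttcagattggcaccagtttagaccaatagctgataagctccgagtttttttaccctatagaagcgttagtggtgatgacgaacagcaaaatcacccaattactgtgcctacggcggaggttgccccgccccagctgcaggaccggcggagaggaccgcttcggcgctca
Cox8a: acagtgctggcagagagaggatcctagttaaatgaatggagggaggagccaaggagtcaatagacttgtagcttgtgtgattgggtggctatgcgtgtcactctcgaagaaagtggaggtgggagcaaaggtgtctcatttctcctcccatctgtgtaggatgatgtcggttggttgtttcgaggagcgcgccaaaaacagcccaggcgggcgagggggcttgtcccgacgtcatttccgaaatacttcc
Uqcr11: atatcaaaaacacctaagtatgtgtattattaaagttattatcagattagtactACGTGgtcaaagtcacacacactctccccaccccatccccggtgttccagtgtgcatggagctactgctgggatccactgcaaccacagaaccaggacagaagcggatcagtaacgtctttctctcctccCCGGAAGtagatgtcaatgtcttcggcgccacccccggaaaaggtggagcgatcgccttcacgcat
Ndufb7: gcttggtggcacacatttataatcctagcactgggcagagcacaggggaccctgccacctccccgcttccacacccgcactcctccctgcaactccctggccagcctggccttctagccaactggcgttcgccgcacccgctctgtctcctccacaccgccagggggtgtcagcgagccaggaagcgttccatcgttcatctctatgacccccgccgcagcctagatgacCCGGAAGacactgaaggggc

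Motifs were searched as exact letters on both strands in such windows, of which RefSeq gave 87 for 82 of the 98 nuclear members. Cox4i1, Cox4i2 and Ndufa4l2 were among those without a window. The letters of an NRF1-type motif, GCGC followed by 2 bases of any kind and by GCGC again, were in 17 of 87 windows (19.5%) and in 4.98% of the 32851 windows of all genes. An ETS-type motif, CCGGAAG, was in 16 of 87 (18.4%) against 6.91%, an ERR-type motif, AAGGTCA, in 5 (5.75%) against 4.08%, and a HIF-type motif, ACGTG, in 18 (20.7%) against 16.6%. NRF1, ETS-family and ERR proteins are known regulators of respiratory chain genes and HIF proteins of the response to low oxygen. In the 36 windows of the 34 members with a window that were higher in smooth muscle-like than in fibroblast-like cells, the counts were 10, 4, 3 and 7, in the same order of motifs. Of the 4 windows shown, Uqcr11 held the ETS-type and the HIF-type letters, Ndufb7 the ETS-type letters, and Atp5b and Cox8a none of the 4. A match describes letters and is not a measured binding site.

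Complex IV has alternative subunits. Summed by class, a pair of them stood higher in mural cells (muscle and pericytes of the vessel wall) than in all other classes. Single clusters of these classes did not all follow, as given below. Ndufa4l2, a hypoxia-inducible relative of Ndufa4, stood at 296 CPM in adult and 498 in aged smooth muscle-like cells and at 335 and 425 in pericyte-like cells. Elsewhere it was at 5.96 and 7.58 in fibroblast-like cells, 4.33 and 1.44 in blood endothelial-like cells and 5.19 and 0 in lymphatic endothelial-like cells, with an upper limit of 7.25 CPM for the 0. Smooth muscle-like cells were 49.6-fold (43.7 to 56.3) and 65.6-fold (58.3 to 73.9) above fibroblast-like cells, the next class in each library, and pericyte-like cells 56.1-fold in both (46.6 to 67.3 and 44.3 to 70.2).

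Cox4i2, the alternative form of Cox4i1 known from lung and from oxygen sensing, followed the same classes. Its level was 124 and 272 CPM in smooth muscle-like and 128 and 172 in pericyte-like cells. It was 3.46 and 5.90 CPM in lymphatic endothelial-like, 2.06 and 1.81 in blood endothelial-like, and 0.350 and 0.361 in fibroblast-like cells. The gap to the next class, lymphatic endothelial-like, was 35.9-fold (16.2 to 98.9) and 46.2-fold (15.7 to 225) for smooth muscle-like cells, with 6 and 3 UMIs behind the lower level. At 4-fold in both libraries, 0 of 103 measured members were restricted to 1 class (4.52% of all genes were), and these were the 2 of 103 that stood 4-fold above the 3 other classes in both mural classes (1.17% of all genes). The joined mural rule was added after their values were seen.

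Counted per cell at an equal depth of 3000 UMIs, Ndufa4l2 was found in 60.3% of adult and 55.6% of aged pericyte-like cells. In lymphatic endothelial-like cells it was found in 2.36% (6 of 254) and 0% (0 of 85, interval up to 4.25%), in blood endothelial-like cells in 0.661% and 0.748%, and in fibroblast-like cells in 1.93% and 2.85%. Cox4i2 was found in 34.5% and 47.2% of pericyte-like cells and in at most 2.35% of cells of these 3 classes. Without thinning, at median depths of 6771.5 and 4848 UMIs in pericyte-like and 13216 and 12436 in fibroblast-like cells, the Ndufa4l2 shares were 69.4% and 69.2% against 4.94% and 6.56%. The few endothelial UMIs were not spread evenly: in the adult library 18 of 21 blood endothelial-like UMIs of Ndufa4l2 came from the cluster led by Rbp7, Col13a1 and Cd300lg, and 9 of 9 lymphatic endothelial-like ones from the cluster led by Ccl21a, Reln and Lyve1. The part of free RNA in these low shares was not tested.

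The pairs differed in which form was the more abundant. Ndufa4, the widespread complex IV subunit that Ndufa4l2 resembles, was at 161 and 66.9 CPM in pericyte-like and 237 and 262 in smooth muscle-like cells, against 326 and 347 in blood endothelial-like, 253 and 346 in lymphatic endothelial-like and 201 and 240.1 in fibroblast-like cells. Of the summed UMIs of the pair, Ndufa4l2 made up 67.5% (61.1 to 73.4) in adult and 86.4% (78.2 to 92.4) in aged pericyte-like cells, while Cox4i2 made up 14.8% and 20.1% of its pair with Cox4i1, which remained the larger part. Higd1b, a further small complex IV-associated protein outside the rule, was at 146 and 208 CPM in smooth muscle-like and 195 and 225 in pericyte-like cells, and at 2.27 and 0.722 in blood endothelial-like cells, the next class.

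Of the other tissue-specific forms, Cox6a2 and Cox8b were near 0. These forms of striated muscle and, for Cox8b, brown fat had 19 and 15 UMIs in all cells, and none in smooth muscle-like or pericyte-like cells, where their partners Cox6a1 (246 and 305 CPM in smooth muscle-like cells) and Cox8a were abundant. Cox7a1, a muscle form, reached 8.17 and 7.10 CPM in smooth muscle-like cells against 366 and 486 for Cox7a2. Cox6b2, known as the testis form, was highest in pericyte-like cells at 31.4 and 19.1 CPM, which was 9.62% (5.48 to 15.4) and 7.69% (2.14 to 18.5) of its pair with Cox6b1. It made up 12.1% and 4.69% of this pair in the Actg2 cluster of smooth muscle-like cells (31.1 and 17.3 CPM) and 13.5% and 7.78% in the fibroblast-like cluster led by Acsbg1, Fmod and Col11a1 (43.1 and 25.3 CPM). All 3 genes of subunit c of the ATP synthase were in use: in smooth muscle-like cells Atp5g1 stood at 192 and 216 CPM, Atp5g2 at 266 and 358 and Atp5g3 at 227 and 274. Atpif1, the inhibitor of the ATP synthase and no member by name, was at 282 and 463 CPM in smooth muscle-like and 276 and 248 in pericyte-like cells, and at 112 to 142 in the other classes.

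**Figure D2:**
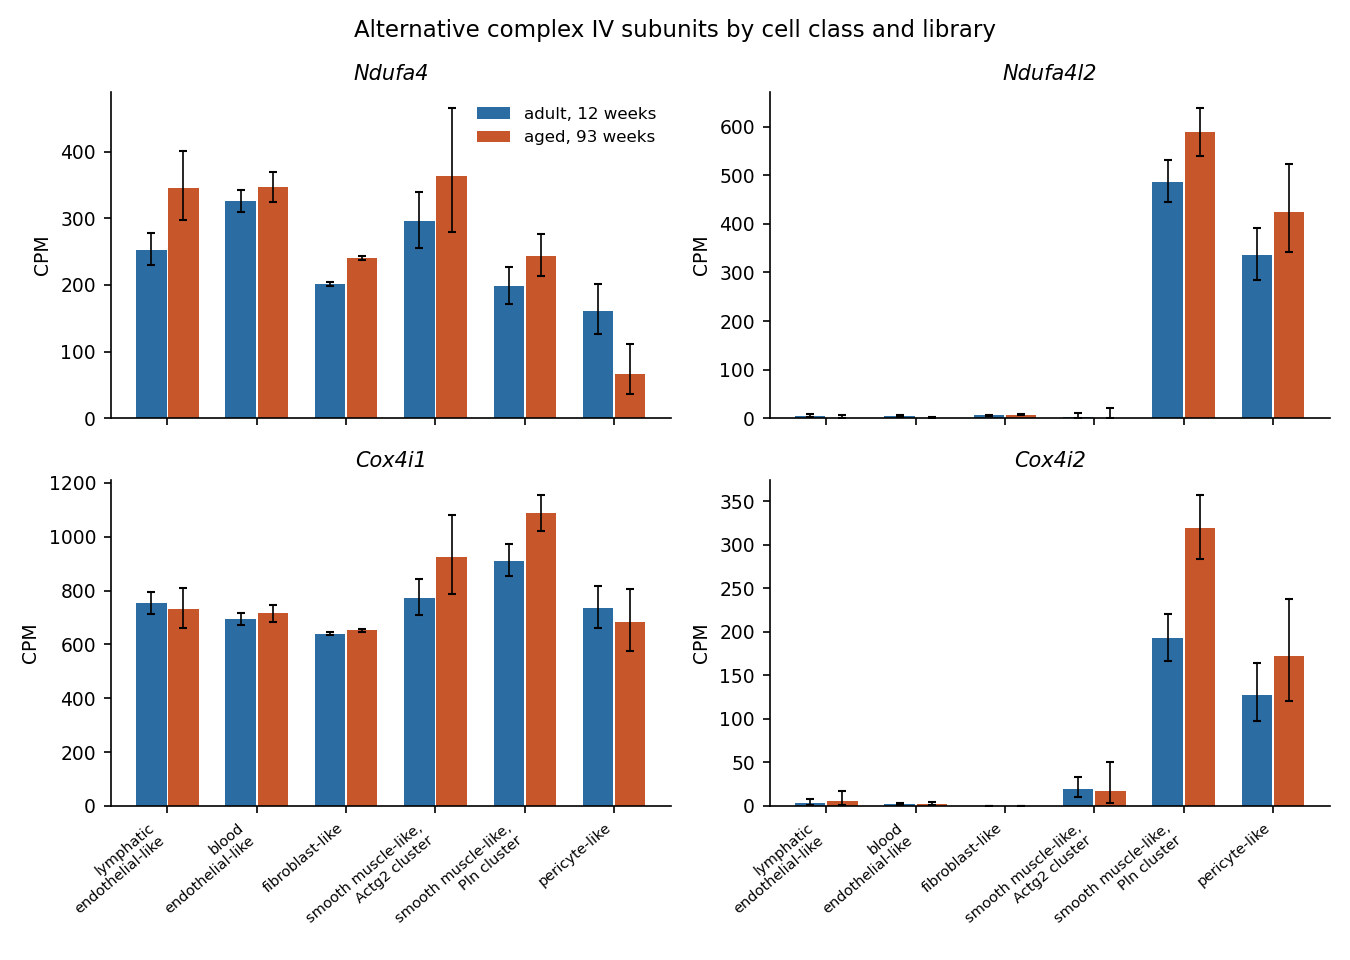
Level (CPM, linear axis) of the complex IV subunits Cox4i1, Cox4i2, Ndufa4 and Ndufa4l2, adult and aged library with exact 95% Poisson intervals. Bars show pericyte-like, fibroblast-like and both endothelial classes and each cluster of smooth muscle-like cells. Cox4i2 and Ndufa4l2 are above 100 CPM in pericyte-like cells and in the Pln cluster, and under 20 CPM in the Actg2 cluster and the 3 other classes.

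Within smooth muscle-like cells the pair belonged to 1 of 2 clusters. The members were left out of the genes used for clustering, so the clusters were formed without them. The first, led by Nrip2, Pln and Myh11, held 158 adult and 163 aged cells. The second, led by Actg2, Cnn1 and Grem1, held 77 and 26 cells. Ndufa4l2 was at 486 CPM (445 to 531) and 588 CPM (540.4 to 639) in the Pln cluster and at 2.96 CPM (2 UMIs) and 0 CPM in the Actg2 cluster. That is 164-fold (45.3 to 1361) in the adult and at least 33.9-fold in the aged library, taken over a floor of 3 counts. Cox4i2 was at 193 and 319 CPM against 19.2 and 17.3 CPM, 10.0-fold (5.73 to 19.1) and 18.4-fold (6.23 to 89.7). At 3000 UMIs per cell, Ndufa4l2 was found in 59.9% and 69.0% of Pln-cluster cells and in 0 of 72 and 0 of 24 cells of the Actg2 cluster (intervals up to 4.99% and 14.2%), no more than in blood endothelial-like cells. The unthinned shares were 72.2% and 76.7% against 1.30% and 0%.

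Ndufa4 had the opposite order, at 198 and 243 CPM in the Pln and 296 and 364 CPM in the Actg2 cluster (log2 −0.57 and −0.58), just short of 1.5-fold. Ndufa4l2 made up 71.0% (67.5 to 74.3) and 70.7% (67.4 to 73.9) of the UMIs of this pair in the Pln cluster, and 0.99% and 0% in the Actg2 cluster. Cox4i2 made up 17.5% (15.3 to 19.8) and 22.7% (20.5 to 25) of its pair with Cox4i1 in the Pln cluster and 2.43% and 1.84% in the Actg2 cluster. Cox4i1 itself was at 911 and 1086 against 774 and 924 CPM.

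Nuclear members in sum stood at 2.10% and 2.56% of UMIs in the Pln and 1.61% and 1.66% in the Actg2 cluster, and mitochondrial members at 5.98% and 6.34% against 4.62% and 4.34%. Past 1.5-fold in both libraries, 12 of 83 measured nuclear members were higher in the Pln cluster, a share near the 13.5% of all genes, and 0 were lower, where 15.1% of all genes were. The median log2 difference was 0.31 and 0.60, against −0.01 and 0.04 for all genes. Beside the pair, they included Ndufb7, Uqcr11, Cox8a and 6 genes of the ATP synthase (Atp5a1, Atp5b, Atp5g2, Atp5g3, Atp5o and Atp5md). Cox8a, for example, was at 1113 and 1344 CPM against 673 and 629.6. Atp5b was at 777 and 1015 CPM against 509 and 508. Of the mitochondrial members 0 of 13 passed 1.5-fold in both libraries in either direction. mt-Cytb differed by 0.55 and 0.67 on the log2 scale, and mt-Nd6 by −0.23 and −0.86.

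Listed regulators of the pathway also differed between the clusters, with 5 of 11 measured ones higher in the Pln cluster in both libraries and 0 lower, beside 13.5% and 15.1% of all genes. Unlike the members, genes of this and the other lists were not left out of the clustering. They could therefore help form the clusters that are compared here, and their part in that was not tested. The calls of Ppargc1b and Esrra rest on 1 UMI each in the aged Actg2 cluster, and that of Ppargc1a on 0. Ppargc1a, a coactivator of mitochondrial biogenesis, was at 89.6 and 57.7 CPM against 0 in both libraries, which is at least 20.2-fold and at least 3.33-fold over the floor. Its relative Ppargc1b was at 45.3 and 43.0 against 8.87 and 5.78 CPM, and Esrra, a nuclear receptor they bind, at 20.2 and 26.2 against 11.8 and 5.78 CPM. The oxygen-regulated factors Epas1 (919 and 879 against 188 and 196 CPM) and Hif1a (123 and 114 against 74.0 and 75.1 CPM) were higher too. Among electron carriers and small partners 3 of 9 were higher: Cycs, cytochrome c (267 and 338 against 127 and 168 CPM), Higd1b (203 and 232 against 57.7 and 75.1) and Chchd10 (116 and 140.5 against 19.2 and 23.1).

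Beyond the chain, 4 of 15 citric acid cycle genes were higher in the Pln cluster and 1 was lower, 3 of 15 glycolysis genes were higher and 2 were lower, and 3 of 8 hypoxia-induced genes were higher and 2 were lower. With 13.5% of all genes higher and 15.1% lower, the glycolysis counts were near the background. Of 64 measured mitochondrial ribosome genes 1 was higher and 2 were lower. The 8 fibroblast markers moved with the clusters, at 961 and 941 CPM in the Pln and 5112 and 7168 CPM in the Actg2 cluster, and their part in these differences was not tested. The 8 smooth muscle markers were at 25021 and 29814 against 27577 and 27367 CPM, and the 8 pericyte markers at 1836 and 2522 against 1875 and 1663. The Actg2 cluster of the aged library rests on 26 cells.

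**Figure D3:**
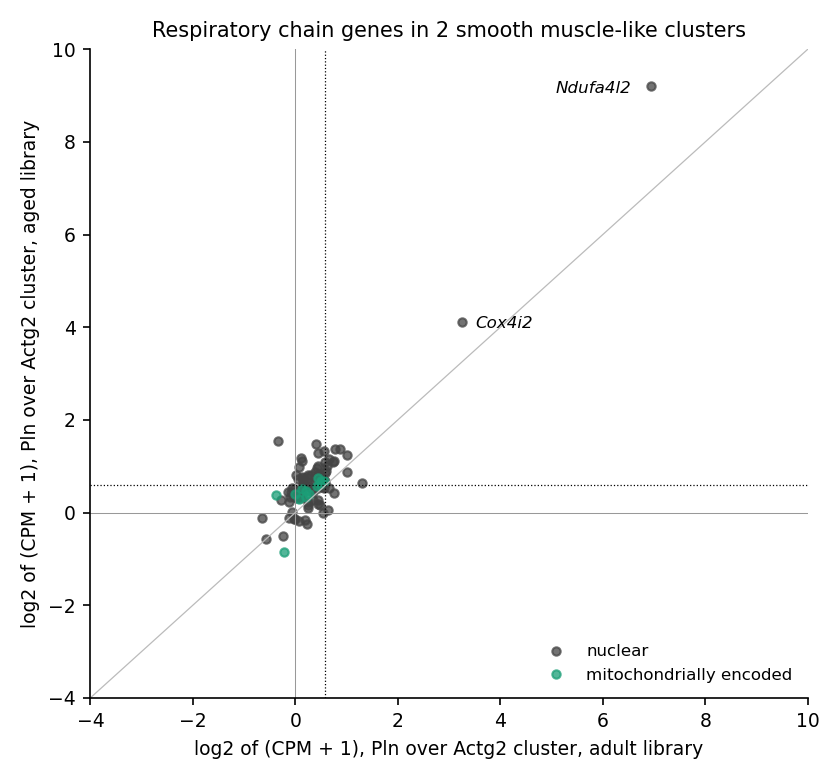
Log2 ratio of CPM plus 1 in the Pln cluster over the Actg2 cluster of smooth muscle-like cells, adult library on the horizontal and aged library on the vertical axis, with 1 point for each measured respiratory chain gene and lines at 1.5-fold. Ndufa4l2 and Cox4i2 lie far from the rest, and the ratio of Ndufa4l2 in the aged library depends on the added CPM because its level in the Actg2 cluster is 0.

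Among fibroblast-like clusters with 20 or more cells in a library (23 adult, 25 aged), the median Ndufa4l2 level was 0.784 and 1.43 CPM. The cluster led by Acsbg1, Fmod and Col11a1 was the highest, at 92.9 and 169 CPM, above the 2.96 and 0 CPM of the Actg2 cluster of smooth muscle-like cells. Cox4i2 was highest in the cluster led by Egln3, Adgrl3 and Gsta3, at 25.2 and 50.3 CPM, and Ndufa4l2 stood there at 75.5 and 94.9 CPM. That cluster also held 944 and 1429.6 CPM of the smooth muscle markers, beside 27761 and 15832 CPM of the fibroblast markers. Their part in these levels was not tested.

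Between ages, the largest difference among the 4 classes compared was in smooth muscle-like cells, where nuclear members in sum were higher in the aged library by 0.344 on the log2 scale (0.321 to 0.368), from 1.91% to 2.42% of UMIs. Fibroblast-like cells differed by 0.067 (0.062 to 0.071), blood endothelial-like cells by −0.042 (−0.061 to −0.023) and lymphatic endothelial-like cells by −0.059 (−0.1 to −0.019). Mitochondrial members were higher in aged lymphatic endothelial-like cells by 0.206 (0.183 to 0.229) and in smooth muscle-like cells by 0.148 (0.133 to 0.162). They were lower in fibroblast-like cells, at −0.156 (−0.159 to −0.153) and closest to 0 in blood endothelial-like cells, at −0.026 (−0.037 to −0.014). With 1 library for each age these values compare 2 libraries, and differences between classes were not tested. Pericyte-like cells were not compared as a class, as the aged library held 39, under the 50 set for classes. Single clusters were compared from 20 cells in each library. By that rule the pericyte-like cluster stood at −0.076 (−0.136 to −0.016) for nuclear and 0.150 (0.115 to 0.185) for mitochondrial members.

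In smooth muscle-like cells the nuclear members shifted together by small amounts. Of 83 measured, 77 had a ratio above 0, against 44.2% of all genes, and their median was 0.31 against −0.05 for all genes. Past 1.5-fold were 4 of 96 measured members, all higher, beside 5.13% of all genes higher and 13.1% lower, so the count itself is near the background. They were Cox4i2 (124 to 272 CPM, log2 1.13, 0.88 to 1.39), Ndufa4l2 (296 to 498 CPM, 0.75, 0.58 to 0.93), Atp5o (184 to 288 CPM, 0.64, 0.42 to 0.87) and Atp5d (396 to 602 CPM, 0.60, 0.45 to 0.76). Atp5o and Atp5d are subunits of the stalks of the ATP synthase. At the other end stood Ndufs4, an accessory subunit of complex I, at 87.5 and 70.1 CPM (−0.32, −0.73 to 0.08), and Ndufv2 at 138 and 125 CPM (−0.14).

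By complex, the sums in aged smooth muscle-like cells were higher by 0.318 (0.277 to 0.360) for complex I, 0.363 (0.289 to 0.437) for complex III, 0.359 (0.314 to 0.403) for complex IV and 0.385 (0.341 to 0.428) for the ATP synthase. Complex II stood at 0.107 with an interval that includes 0 (−0.061 to 0.275), and Sdhc was at 155 and 153 CPM. The 4 assembly factors of complex II went the other way, at −0.760 (−1.324 to −0.220), from 103 to 40 UMIs, and none of them passed the filter on low values. The Ndufaf assembly factors of complex I stood at 0.161 (−0.082 to 0.402). The 17 nuclear ATP synthase subunits, the 8 of complex III and the 14 measured of complex IV all had ratios above 0, as did 33 of 36 of complex I. Of the mitochondrial members all 13 were above 0, from 0.01 for mt-Nd5 to 0.29 for mt-Nd4l, with mt-Cytb at 0.23 (0.19 to 0.27).

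**Figure D4:**
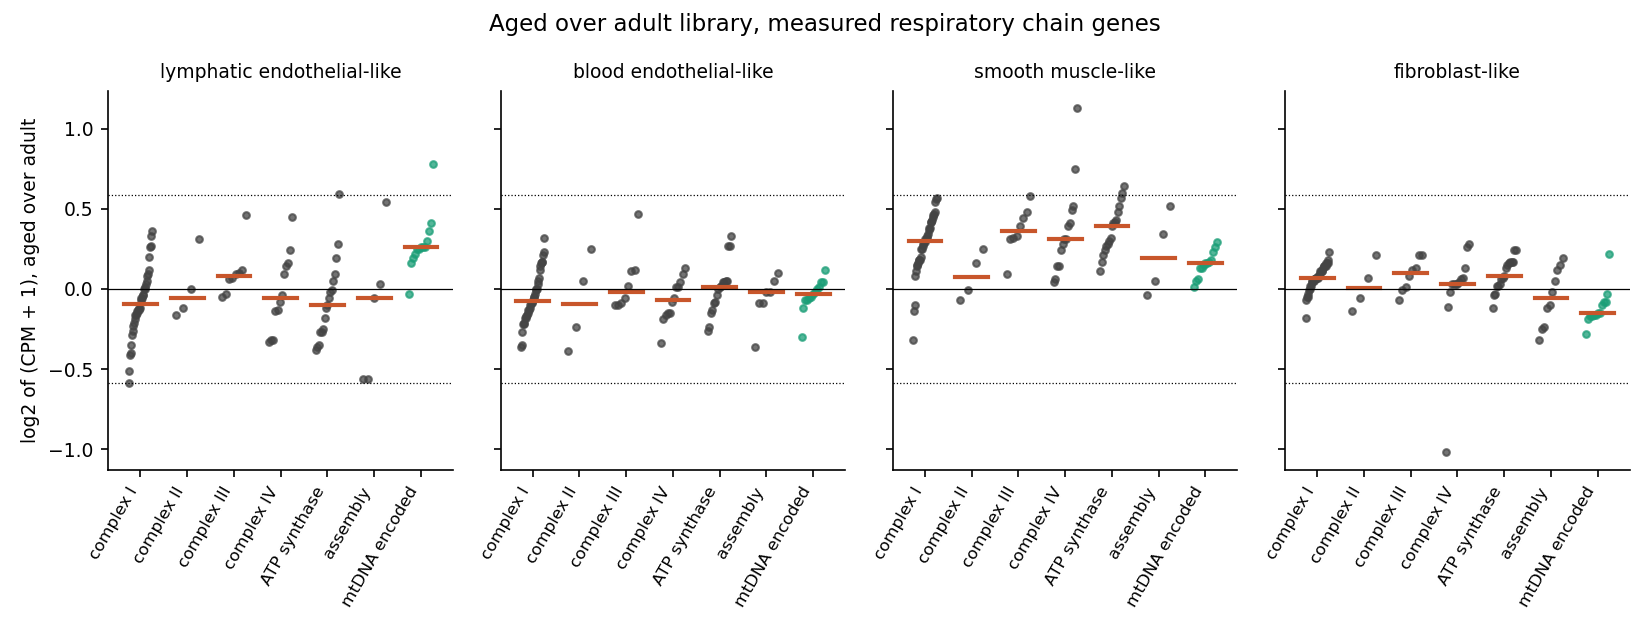
Log2 ratio of CPM plus 1, aged over adult library (vertical axis), with 1 point for each measured gene, in the 4 classes compared. Nuclear subunits are grouped by complex, beside the assembly factors and the mitochondrially encoded genes. A bar marks the median of each group, and dotted lines mark 1.5-fold. In smooth muscle-like cells the medians of complexes I, III and IV and of the ATP synthase lie between 0.3 and 0.39 and that of complex II at 0.08.

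The value in smooth muscle-like cells moved with the make-up of the class. The Pln cluster was 67.2% (60.8 to 73.2) of adult and 86.2% (80.5 to 90.8) of aged smooth muscle-like cells. Within it nuclear members differed by 0.283 (0.257 to 0.310), and within the Actg2 cluster by 0.047 (−0.013 to 0.107). Mitochondrial members differed by 0.083 (0.067 to 0.100) and −0.090 (−0.127 to −0.054). Cox4i2 differed by 0.723 (0.464 to 0.991) within the Pln cluster, and Ndufa4l2 by 0.273 (0.098 to 0.450), under 1.5-fold. The nuclear difference was 0.206 in female and 0.423 in male cells and 0.186 with both clusters weighted equally. The mitochondrial difference was 0.205 in female and 0.054 in male cells and 0.010 with both clusters weighted equally. In male cells (102 adult and 77 aged) 15 members passed 1.5-fold higher and 1 lower, and in female cells (91 and 83) 5 passed higher. The share of all genes was not set beside these counts, so they are not read further. Salivary gland markers moved with age in every class, from 0 to 207 CPM in smooth muscle-like and from 1.01 to 80.1 CPM in fibroblast-like cells, as did in smooth muscle-like cells the markers of fibroblasts (2598 and 1898 CPM), of lymphatic endothelium (374 and 81.6 CPM, with Prox1 at 218 and 9.76), of blood endothelium (86.9 and 17.7 CPM) and of pericytes (1851 and 2390.1 CPM, with Rgs5 at 405 and 920), and their part in the results was not tested.

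In lymphatic endothelial-like cells nuclear and mitochondrial members stood on opposite sides of 0. Of the measured nuclear members 32 of 82 were above 0, against 53.9% of all genes, and 12 of 13 mitochondrial members were. Past 1.5-fold were mt-Nd4l (137 to 236 CPM, 0.78, 0.45 to 1.10) and Atp5md, a small ATP synthase subunit (66.4 to 100.3 CPM, 0.59, 0.09 to 1.08), higher, and Ndufc1 of complex I (113 to 74.7 CPM, −0.59, −1.14 to −0.09), lower, beside 7.88% and 9.06% of all genes. The largest mitochondrial transcripts gave smaller values, with mt-Co3 and mt-Co2 at 0.26, mt-Atp6 at 0.19 and mt-Co1 at −0.03. By cluster, mitochondrial members were at 0.217 (0.178 to 0.255) in the cluster led by Tmem108, Nts and Cd74, 0.139 (0.095 to 0.183) in that led by Ptprt, Lcn2 and Clca3a1 and 0.095 (0.045 to 0.145) in that led by Spp1, Coch and Dapl1. They were at −0.072 (−0.139 to −0.006) in the cluster led by Ccl21a, Reln and Lyve1, which has capillary-type markers and 20 aged cells. Nuclear members were at 0.117 (0.025 to 0.208) there, so both signs were the reverse of the class. In the clusters led by Tmem108, Ptprt and Spp1 they were at −0.079, −0.152 and −0.021. The Ccl21a cluster held 100 of 276 adult and 20 of 93 aged cells, with mitochondrial members at 2.65% and 2.52% of its UMIs. The part of this shift in the class values was not tested. The class value for mitochondrial members was 0.112 with clusters weighted equally and 0.095 in male cells, and that for nuclear members was −0.129 in female cells.

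Blood endothelial-like cells had 0 of 97 measured members past 1.5-fold in either direction, where 4.55% of all genes were higher and 5% lower. Uqcrc1, a core subunit of complex III, had the highest ratio (48.7 to 67.9 CPM, 0.47, 0.20 to 0.76) and Sdhc the lowest (48.5 to 36.8 CPM, −0.39, −0.75 to −0.05). Its clusters differed in sign: nuclear members were at 0.075 (0.029 to 0.121) in the cluster led by Rbp7, Col13a1 and Cd300lg and at −0.203 (−0.271 to −0.135) in that led by Tmem252, Mctp1 and Tacr1. Erythroid markers summed to 1336 and 10.8 CPM in adult and aged cells of this class, and their part was not tested.

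In fibroblast-like cells the small mitochondrial difference had the same sign in most clusters. The libraries filled these clusters unequally, for example 83 adult and 757 aged cells in the cluster led by Rtl4, Wt1 and Igf2bp2 and 355 and 25 in that led by Krtdap, Dmkn and Ctla2a, and 4 of 26 clusters held too few cells of a library to be compared. Erythroid markers summed to 209 CPM in adult and 4.71 CPM in aged cells of the class, and their part was not tested. Mitochondrial members were below 0 in 20 of 22 clusters with 20 or more cells in each library, 19 of them with an interval below 0, and the median was −0.147. Nuclear members were above 0 in 17 of 22, with a median of 0.042. Of the 13 mitochondrial genes 12 were below 0, with mt-Nd3 at −0.28 (−0.32 to −0.25) and mt-Cytb at −0.19 (−0.20 to −0.18), and mt-Nd6 was above, at 0.22 (0.14 to 0.33). An exception was the cluster led by Egln3, Adgrl3 and Gsta3 (51 and 23 cells), where mitochondrial members went from 2.88% to 4.25% of UMIs (0.563) and nuclear members differed by 0.374. Its fibroblast markers were at 27761 and 15832 CPM and its smooth muscle markers at 944 and 1429.6 CPM. Over all other cells its mean log2 was −0.565 for fibroblast, 1.124 for smooth muscle, 1.554 for pericyte and 5.213 for epithelial markers. Its name is therefore uncertain, and the part of its make-up was not tested. Past 1.5-fold was 1 of 101 measured members, Cox6b2, at 10.1 and 4.49 CPM (−1.02), beside 1.8% of all genes higher and 3.77% lower. Cox5a had the highest ratio at 0.28 (113 to 137 CPM).

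**Figure D5:**
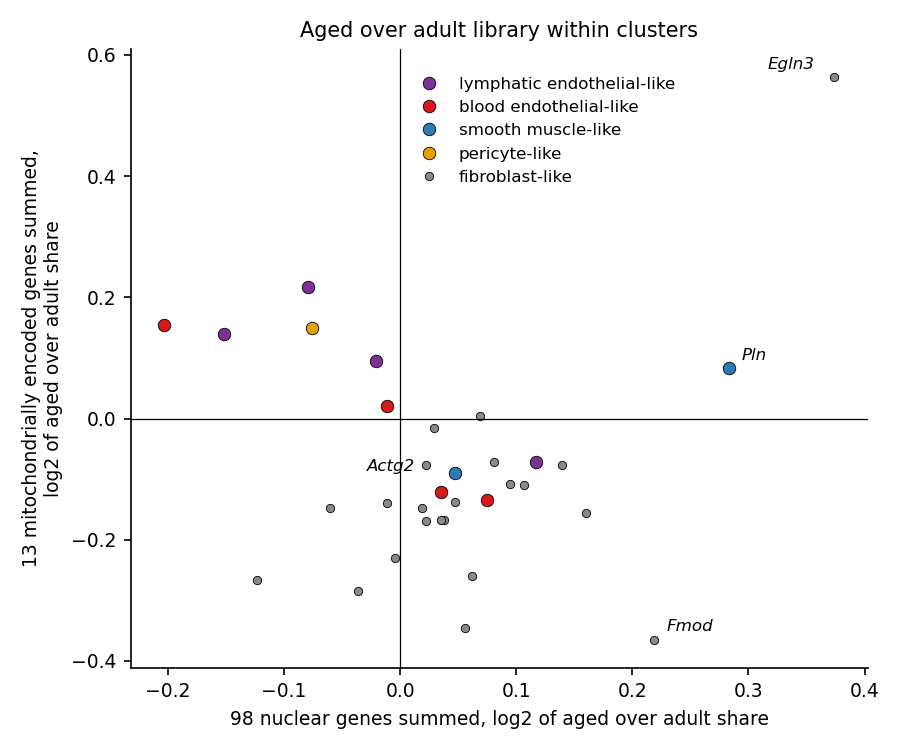
Log2 ratio of aged over adult share of UMIs for nuclear (horizontal axis) and mitochondrial (vertical axis) respiratory chain genes, with 1 point for each cluster with 20 or more cells in each library, coloured by class. Most fibroblast-like clusters lie below 0 on the vertical axis (20 of 22), and the Pln cluster of smooth muscle-like cells lies at 0.283 and 0.083.

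The other lists of the pathway, in aged against adult smooth muscle-like cells, moved less evenly. All 9 measured electron carriers and partners were above 0, with a median of 0.46. Of these, 1 passed 1.5-fold, Chchd10 (77.6 to 122 CPM, 0.65, 0.30 to 1.01), and Cycs was at 0.55 (212 to 311 CPM). Over all genes 5.13% were higher and 13.1% lower, as above. Of 15 citric acid cycle genes 4 were higher and 0 lower, led by Pdhb of pyruvate dehydrogenase (32.1 to 62.1 CPM, 0.93). Of 15 glycolysis genes 0 were higher and 3 lower, near that background, among them the phosphofructokinase Pfkp (132 to 71.9 CPM, −0.87) and the hexokinase Hk1 (55.4 to 33.7 CPM, −0.70). Of 8 hypoxia-induced genes 0 were higher and 4 lower, with a median of −0.58, led by adrenomedullin, Adm (51.9 to 9.76 CPM, −2.30, −3.46 to −1.50), and Vegfa (60.7 to 37.3 CPM, −0.69). Ndufa4l2 and Cox4i2, which hypoxia is known to induce in other cells, had ratios of 0.75 and 1.13, and of 0.273 and 0.723 within the Pln cluster. Of the 8 hypoxia-induced genes, 3 were higher in the Pln than in the Actg2 cluster and 2, Adm and P4ha1, were lower. The Pln cluster made up 67.2% of adult and 86.2% of aged cells of the class. The part of this make-up, or of hypoxia, in these ratios was not tested.

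Few genes that build and maintain mitochondria passed 1.5-fold in these cells, beside the same 5.13% and 13.1% of all genes. The 64 measured mitochondrial ribosome genes had a median of −0.01, with 1 higher, Mrps6 (0.59), and 0 lower. Of 12 assembly factors outside the rule 0 were higher and 1 was lower, Cox18 (21.0 to 12.4 CPM, −0.71, interval −1.76 to 0.17). Their median was −0.15, with 9 of 12 below 0. Of 11 regulators 0 were higher and 1 was lower, Gabpb1 (21.0 to 12.4 CPM, −0.71). The median of the regulators was 0.25, with 7 of 11 above 0, against −0.05 for all genes. Of 7 fatty acid oxidation genes 0 passed 1.5-fold in either direction, and Hadha had the highest ratio at 0.43. Of 12 stress and antioxidant genes 2 were higher, Gdf15 (107 to 175 CPM, 0.71) and Prdx5 (182 to 277 CPM, 0.60). In the list of mitochondrial DNA upkeep 1 of 6 passed, Polg2, the accessory subunit of the mitochondrial DNA polymerase (47.8 to 18.6 CPM, −1.31, −2.13 to −0.65).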

How the data were processed

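Droplet RNA was measured in 1 library for each age, and both were used. Seurat 5.0.3 made the matrices, per the submitters' processing notes, which also list the builds GRCm39 and mm10 without a role. The sources used here name neither aligner nor counter. The authors deposited natural log values (each cell scaled to a sum of 10000, with 1 added before the log, as the numbers themselves show), and whole UMIs were recovered from them. The aged matrix has no gene names, so its rows took the names of the adult rows at the same position. Aged barcodes that the adult matrix also holds were dropped.

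Cells were clustered on 2000 variable genes, without respiratory chain, ribosomal, haemoglobin, sex-linked and immediate early genes, with 30 components, 15 neighbours and the Leiden method at a resolution of 2 (numpy 2.4.6, scikit-learn 1.9.0, igraph 0.11.9). Clusters were named from the marker lists, with naming thresholds set after seeing the data. No doublet caller was run, and a cluster of mixed markers was kept apart. UMIs were summed for each class and library to give CPM, and ratios carry exact conditional binomial intervals (scipy 1.17.1). Ages were compared in classes with at least 50 cells at both ages, and within single clusters with at least 20. Cells with Xist UMIs and none of Ddx3y, Eif2s3y, Uty or Kdm5d were called female, and cells with the reverse male. Other cells were left out of the values by sex. The scripts were tested on simulated data.

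Named genes were all mitochondrial members, the families of alternative subunits, class-restricted members, the 6 highest and 6 lowest ratios between ages in each class, the 5 highest nuclear members, and the 2 highest and 2 lowest of each other list. From these the text gives those that carry a result, and genes named beyond them were chosen after their values were seen, as were the comparison of the Pln with the Actg2 cluster and the promoters shown. The members and lists were chosen with earlier results of these data known. Some genes that these rules name are not reported here. Alternative settings are given in the closing section.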

Additional observations from a re-analysis of the deposited data

Results flagged for a closer look

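The summed respiratory chain genes differed between the ages in opposite directions in different cell classes. The log2 ratio of aged over adult for nuclear members was 0.344 in smooth muscle-like and 0.067 in fibroblast-like cells, but −0.059 in lymphatic endothelial-like and −0.042 in blood endothelial-like cells. For mitochondrial members it was 0.206 in lymphatic endothelial-like and 0.148 in smooth muscle-like cells, but −0.026 in blood endothelial-like and −0.156 in fibroblast-like cells. Each age is 1 library, so the difference between classes was not tested.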

How the results depend on the processing

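No value computed under another setting changed direction. With all aged barcodes kept, which adds copies of adult cells to the aged side, the log2 ratios of aged over adult were 0.075 for mitochondrial members in lymphatic endothelial-like cells, 0.185 (nuclear) and 0.076 (mitochondrial) in smooth muscle-like cells and 0.038 and −0.106 in fibroblast-like cells, and 0 members were higher and 0 lower in lymphatic endothelial-like cells and 1 was higher in smooth muscle-like cells. With clusters at a resolution of 1, smooth muscle-like cells gave 0.277 and 0.094 with 2 members higher and 2 lower, and 2 members, Cox4i2 and Ndufa4l2, were restricted to 1 class. At this resolution no cluster was named pericyte-like or mixed, so that restriction was not set against pericyte-like cells. A cluster of 139 adult and 65 aged cells with Actg2, Cnn1, Dlk1 and Rgs5 among its leading genes was named smooth muscle-like. In female cells the ratios were −0.129 and 0.296 in lymphatic endothelial-like, 0.206 and 0.205 in smooth muscle-like and 0.033 and −0.165 in fibroblast-like cells, with 4 members higher and 4 lower in lymphatic endothelial-like cells and 1 higher in blood endothelial-like cells. In male cells the mitochondrial ratio was 0.095 in lymphatic endothelial-like cells, with 4 members higher and 3 lower. Male smooth muscle-like cells gave 0.423 and 0.054 with 15 members higher and 1 lower, male fibroblast-like cells 0.087 and −0.121 with 0 lower, and male blood endothelial-like cells 1 lower. With each cell weighted equally the ratios were −0.052 (mitochondrial) in blood endothelial-like, 0.299 and 0.091 in smooth muscle-like and 0.086 and −0.194 in fibroblast-like cells. With clusters weighted equally they were 0.112 (mitochondrial) in lymphatic endothelial-like, −0.019 and −0.012 in blood endothelial-like, 0.186 and 0.010 in smooth muscle-like and −0.111 (mitochondrial) in fibroblast-like cells. Without mitochondrial genes in the total 0 members were lower in lymphatic endothelial-like cells. With 10 CPM added 1 was higher and 0 were lower there, and 0 were lower in fibroblast-like cells. In female cells alone, a setting chosen after seeing the data, the log2 ratio of Cox4i2 in the Pln over the Actg2 cluster of the aged library was 8.08 in place of 4.12, with 0 UMIs in the Actg2 cluster, so that it depends on the added CPM. The cause of these shifts was not tested. For the counts of members under these other settings the share of all genes was not set beside them. Few cells limit the aged values of the Actg2 cluster (26), the pericyte-like class (39) and single lymphatic endothelial-like clusters (20 to 31). No paired analysis was possible because each age has 1 library.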

Other observations

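Polg2, the accessory subunit of the mitochondrial DNA polymerase, was the gene of the mitochondrial DNA upkeep list that passed 1.5-fold lower in the aged library in all 4 classes compared, with log2 ratios of −1.31 in smooth muscle-like, −1.51 in lymphatic endothelial-like, −1.05 in blood endothelial-like and −1.42 in fibroblast-like cells. It was at 103 and 35.4 CPM (adult and aged) in lymphatic endothelial-like cells, 42.3 and 19.9 in blood endothelial-like cells and 44.4 and 15.9 in fibroblast-like cells.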
